A study of Drosophila melanogaster with 22 samples.

Results

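Drosophila S2 cells that had received double-stranded RNA (dsRNA) against Med13 were compared with S2 cells that had received dsRNA against GFP or luciferase (Luc). The members were chosen by sample title, with 4 arrays for Med13 dsRNA and 8 control arrays (4 GFP and 4 Luc), of 22 arrays in all. The other 10 arrays were 4 for Med12, 2 for Cdk8 and 4 for CycC dsRNA, and they served to ask where the Med13 response differed from that of its partner subunits. All groups were S2 cells, an established line, grown in serum-containing medium. Cells were incubated with 20 µg of dsRNA in serum-free medium, returned to serum and harvested after 72 h, so every control had also been exposed to a dsRNA. Nothing in the labels states that the replicates were independent cultures, and the p-values therefore cover only how far these samples differed among themselves, a spread that may be technical.

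Med13, encoded in flies by skuld (skd), is a subunit of the Cdk8 module, a kinase module that attaches to and leaves the coactivator complex Mediator. Med13 is the subunit that makes the contact with the core of Mediator, while Med12, encoded by kohtalo (kto), activates the kinase Cdk8 and its partner Cyclin C (CycC). In flies skd and kto mutants share developmental phenotypes, in the eye and the wing among others. S2 cells come from late embryos and resemble macrophage-like blood cells (haemocytes), which engulf bacteria and dying cells and secrete matrix proteins and antimicrobial peptides.

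Levels are given as log2 of the deposited intensity of a probe set, and they were compared between groups for the same probe set only. A log2 level of 4 (an intensity of 16) served as the floor under which a probe set was taken as weak, and the array values used here came without detection calls. The number of probe sets at or over the floor was 7181 to 7204 on the Med13 arrays and 7175 to 7211 on the controls. Correlations between arrays of a group were 0.997 to 0.998 for Med13, 0.998 to 0.999 for GFP and 0.996 to 0.998 for Luc. Among the haemocyte markers Hml stood at 12.62 to 12.73 under Med13 dsRNA and 12.68 to 12.93 in controls and the blood GATA factor gene srp at 11.86 to 12.46 and 12.23 to 12.59. He, NimC4, Sr-CI, eater and Pxn, of the same set of markers, fell and are described below, as is a smaller fall of Col4a1. The crystal cell gene PPO1 lay over the floor in both groups, at 5.69 to 6.28 and 6.11 to 6.89. The plasmatocyte receptor gene NimC1 and the crystal cell genes lz and PPO2 lay under the floor in both groups. So did the neuronal genes brp and nSyb, the fat body genes Lsp2 and Yp1 and the germline gene vas. Of 11 tested markers of other cell types none passed the test in either direction, beside 32.2% called over all genes tested. Some passed in other settings. The gut and epithelium marker baz fell in 6 of 31 alternatives, centring of arrays on their medians and quantile normalization among them. The germline marker ovo fell in 2, quantile normalization among them, and the germline marker zpg rose in 2. The neuron and glia marker nrv2 rose in 1. In the main test the log2 difference was 0.06 for elav, 0.12 for nrv2 and -0.12 for cora. Of the 11 markers 1, the germline gene bam, lay under the floor on all Med13 and control arrays and was kept only through other groups, so it gives no reading of a change here.

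The targeted transcript was only slightly lower. The stronger of the 2 skd probe sets read 8.80, 8.51, 8.70 and 8.71 under Med13 dsRNA, against 8.90 to 9.14 in the 8 controls (median 8.98). All 4 Med13 arrays lay below all 8 controls, and the log2 difference was -0.31 ± 0.05 (standard error, SE; n = 4 against 8; adjusted p = 7.76e-05). The weaker probe set read 7.45, 7.65, 7.16 and 7.92 under Med13 dsRNA, against 7.60 to 7.88 in controls (median 7.76). There the groups overlapped, the array Med13 4 stood above all controls, and the difference of -0.18 ± 0.10 did not pass the test (adjusted p = 0.188). The sources used here do not place the dsRNA or the probes on the skd transcript, so neither reading can be tied to the targeted stretch. The protein was not measured.

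**Figure D1:**
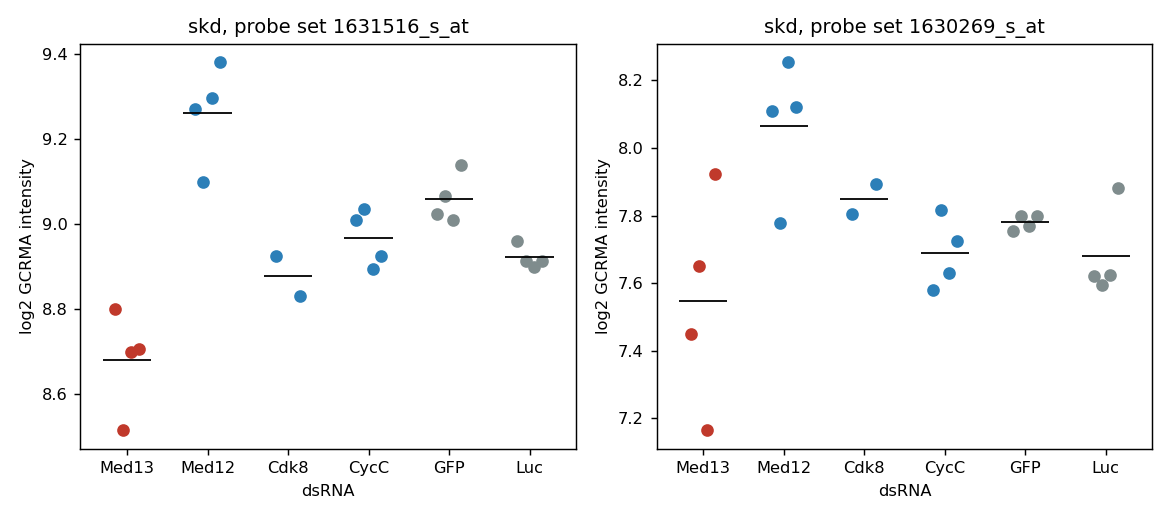
Log2 intensity of the stronger (left) and the weaker (right) skd probe set by dsRNA target, 1 point per array, with horizontal lines for group means; the axes do not start at 0. The 4 Med13 arrays lie below the controls for the stronger skd probe set (8.51 to 8.80 against 8.90 to 9.14) and overlap them for the weaker one.

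The transcripts of the other 3 module subunits did not pass the test. The log2 difference was 0.03 ± 0.06 for kto (adjusted p = 0.708), 0.06 ± 0.04 for Cdk8 (adjusted p = 0.350) and 0.10 ± 0.08 for CycC (adjusted p = 0.358). Of 23 genes for the head, middle and tail of Mediator, 3 rose and none fell (13% called, beside 32.2% over all genes tested). MED1, which contacts nuclear receptors in mammals, was at 8.36 to 8.54 under Med13 dsRNA and 8.00 to 8.26 in controls (0.29 ± 0.05, adjusted p = 0.000353). The others were MED21 (0.16 ± 0.05) and MED17 (0.14 ± 0.04), whose call was lost after quantile normalization and without the array Med13 3.

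Across 5961 genes 1918 changed under Med13 dsRNA, which is 32.2% of those tested. There were 1249 rises (21%) and 669 falls (11.2%), and the median size among changed genes was 0.21 on the log2 scale. The balance between rises and falls moved with the scaling, to 943 rises and 911 falls after each array was centred on its median and to 1030 and 842 after quantile normalization. The median over all genes was 0.03 as deposited. All 4 Med13 arrays stood above all 8 controls for 648 genes (10.9%) and below all of them for 386 (6.48%). Changes of 2-fold or more were few, with 24 rises (0.403%) and 31 falls (0.52%), and all 55 of these genes had Med13 arrays apart from every control. Of the 55, 28 carry only a CG number, 14 among the rises and 14 among the falls. The falls went further than the rises, since 9 genes fell and 2 rose by 4-fold or more.

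**Figure D2:**
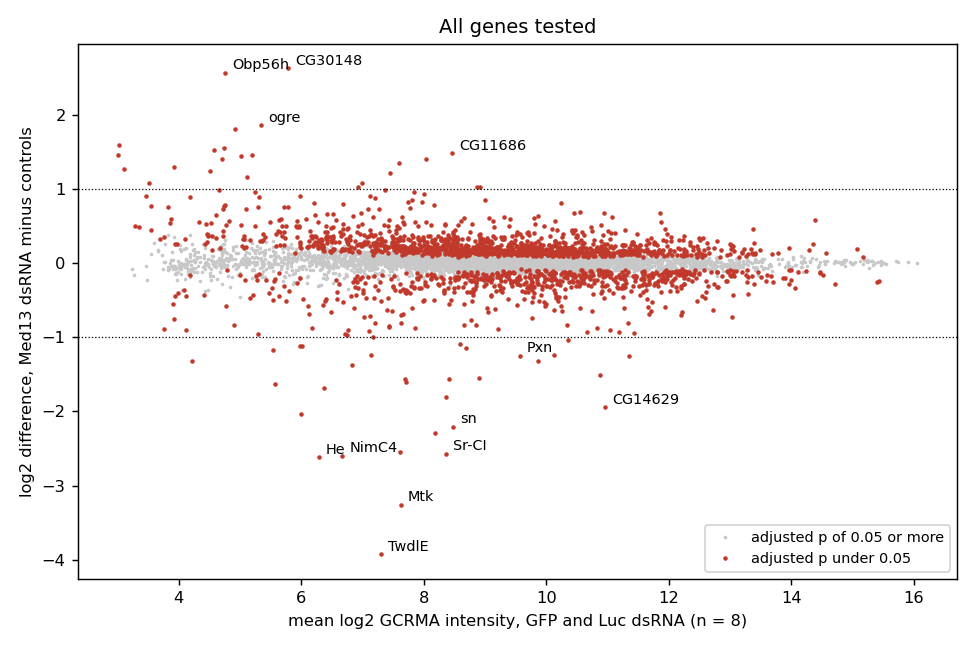
Log2 difference of each of the 5961 genes (Med13 dsRNA minus controls) against its mean log2 intensity in the 8 controls, with genes under an adjusted p of 0.05 in red and dotted lines at 2-fold. The 24 rises and 31 falls beyond 2-fold reach 2.62 and -3.93, while most red points lie close to 0.

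The 4 Med13 arrays gave the same size of response. Over the 24 genes that rose 2-fold, the mean difference from controls was 1.43, 1.53, 1.40 and 1.46 on arrays 1 to 4. Over the 31 that fell it was -1.83, -1.71, -1.84 and -1.66. Those genes were chosen on these arrays, so the means describe how evenly the arrays share the response and test nothing. Against GFP dsRNA alone 992 genes rose (16.6%) and 620 fell (10.4%), 27% of genes tested, and against Luc dsRNA alone 967 rose (16.2%) and 519 fell (8.71%), 24.9% in all. With each array centred on its median these became 799 and 833 for GFP and 680 and 697 for Luc, and with quantile normalization 736 and 668 for Luc. Both comparisons use the same Med13 arrays. The 20 largest rises and the 20 largest falls described below passed against GFP alone and against Luc alone, 40 of 40 in each case. They were chosen among called genes with every Med13 array beyond every GFP and Luc array. Passing against each control was thus favoured by the choice and is no further test.

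The largest falls included genes for a cuticle protein, an antimicrobial peptide and 3 blood cell surface proteins. TwdlE, a member of the Tweedle family of cuticle proteins, read 3.43, 3.36, 3.27 and 3.43 under Med13 dsRNA, against 6.72 to 7.74 in controls (median 7.35). It fell by 3.93 ± 0.13 on the log2 scale (15.2-fold lower; adjusted p = 6.75e-15), and since all 4 Med13 arrays lay under the floor the size of that ratio depends on the background correction. The other measured Tweedle genes, TwdlC and TwdlH, read 4.45 to 4.48 and 4.02 to 4.04 under Med13 dsRNA and differed by -0.01 each, which did not pass the test.

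He, which encodes the haemocyte surface protein Hemese, read 3.48, 3.60, 3.34 and 4.24 under Med13 dsRNA, against 5.53 to 6.74 in controls (median 6.37). On 3 of the 4 Med13 arrays He lay under the floor, and it fell by 2.62 ± 0.19 (adjusted p = 7.31e-10). NimC4, a Nimrod receptor by which phagocytes bind dying cells, read 4.30, 4.22, 3.99 and 3.78, against 6.46 to 6.90 in controls (median 6.68; -2.59 ± 0.11). It lay under the floor on 2 of the 4 Med13 arrays. Sr-CI, a scavenger receptor that binds bacteria, read 5.52, 5.84, 5.74 and 6.08, against 8.24 to 8.45 in controls (median 8.39; -2.57 ± 0.09). None of these 3 genes had a Med13 array within a log2 unit of any control. A smaller fall was seen for eater, the Nimrod receptor for bacteria, which read 9.91, 10.00, 9.87 and 10.05 under Med13 dsRNA and 10.75 to 10.92 in controls (median 10.82; -0.87 ± 0.05).

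Of 9 measured genes for haemocyte surface and phagocytic receptors 6 fell and none rose, with a list median of -0.28, beside 11.2% falls and a median of 0.03 over all genes tested. The remaining falls were those of the engulfment receptor gene drpr (-0.28 ± 0.04) and the immunoglobulin gene Dscam1 (-0.22 ± 0.07). Hml, which encodes the clotting protein hemolectin, stood at -0.09, the scavenger receptor gene pes at 0.01 and crq, a CD36-like receptor gene, at 0.04, and none of the 3 passed. In RNA from whole cultures, fewer cells with a transcript and less of it per cell cannot be told apart.

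Singed (sn) encodes fascin, which bundles actin filaments. It read 6.38, 6.47, 5.68 and 6.57 under Med13 dsRNA, against 8.25 to 8.66 in controls (median 8.47), and fell by 2.21 ± 0.15 (adjusted p = 5.1e-10). The lowest reading was on array 3, and the groups did not overlap, which the choice of the largest falls required. Of 20 actin cytoskeleton genes 5 fell and 3 rose (40% called, beside 32.2% over all genes tested), with a median of -0.01. Those that fell with sn were the actin elongation factor gene ena (-0.47 ± 0.06), the nucleator gene spir (-0.40 ± 0.07), Moe, which ties actin to the membrane, and the profilin gene chic. Gelsolin (Gel), which severs filaments, stood at 13.78 to 13.94 under Med13 dsRNA and 13.28 to 13.48 in controls and rose by 0.45 ± 0.04. The formin gene capu (0.30) and Abp1 (0.17) rose less.

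Further large falls concerned a growth factor and several enzymes. Branchless (bnl), the fibroblast growth factor that guides tracheal branches, read 3.85, 4.10, 3.70 and 4.09 under Med13 dsRNA, against 5.17 to 6.11 in controls (median 5.51; -1.64 ± 0.14). It lay under the floor on 2 of the 4 Med13 arrays. Pgant2, which adds the first sugar in O-linked glycosylation, read 5.04, 4.52, 4.63 and 4.54, against 5.90 to 6.83 in controls (median 6.35; -1.69 ± 0.13), and the related Pgant9 fell by 1.23 ± 0.14. Arginase (arg) read 5.78, 6.08, 6.20 and 6.46, against 7.43 to 7.93 in controls (median 7.71; -1.56 ± 0.10). In each of these the 4 Med13 arrays lay below every control, which the choice of the largest falls required except for Pgant9. The aquaporin gene Prip read 7.32, 7.39, 7.25 and 7.42, against 8.50 to 9.16 in controls (median 8.92; -1.55 ± 0.08).

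The 20 largest falls also held genes known only by number. CG31445 read 4.88, 5.08, 5.42 and 4.86 under Med13 dsRNA, against 7.43 to 7.76 in controls (median 7.61; -2.54 ± 0.09). CG14629 read 8.93, 8.99, 9.10 and 9.02, against 10.81 to 11.08 in controls (median 10.96; -1.94 ± 0.06), and CG10962 read 9.39, 9.44, 9.32 and 9.34, against 10.79 to 11.05 (median 10.85; -1.50 ± 0.05). Both of these lay well over the floor in both groups, so those ratios do not rest on weak signal. Others were CG5397 (-2.29 ± 0.10), CG4250 (-2.03 ± 0.14), CG45263 (-1.80 ± 0.08), CG44014 (-1.60 ± 0.18), CG8157 (-1.56 ± 0.08), CG5399 (-1.37 ± 0.13) and CG4829 (-1.32 ± 0.06). CG4250 lay under the floor on 3 of its 4 Med13 arrays, so its ratio depends on the background correction. For CG44014 a second probe set gave a smaller fall of 0.99 ± 0.13.

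**Figure D3:**
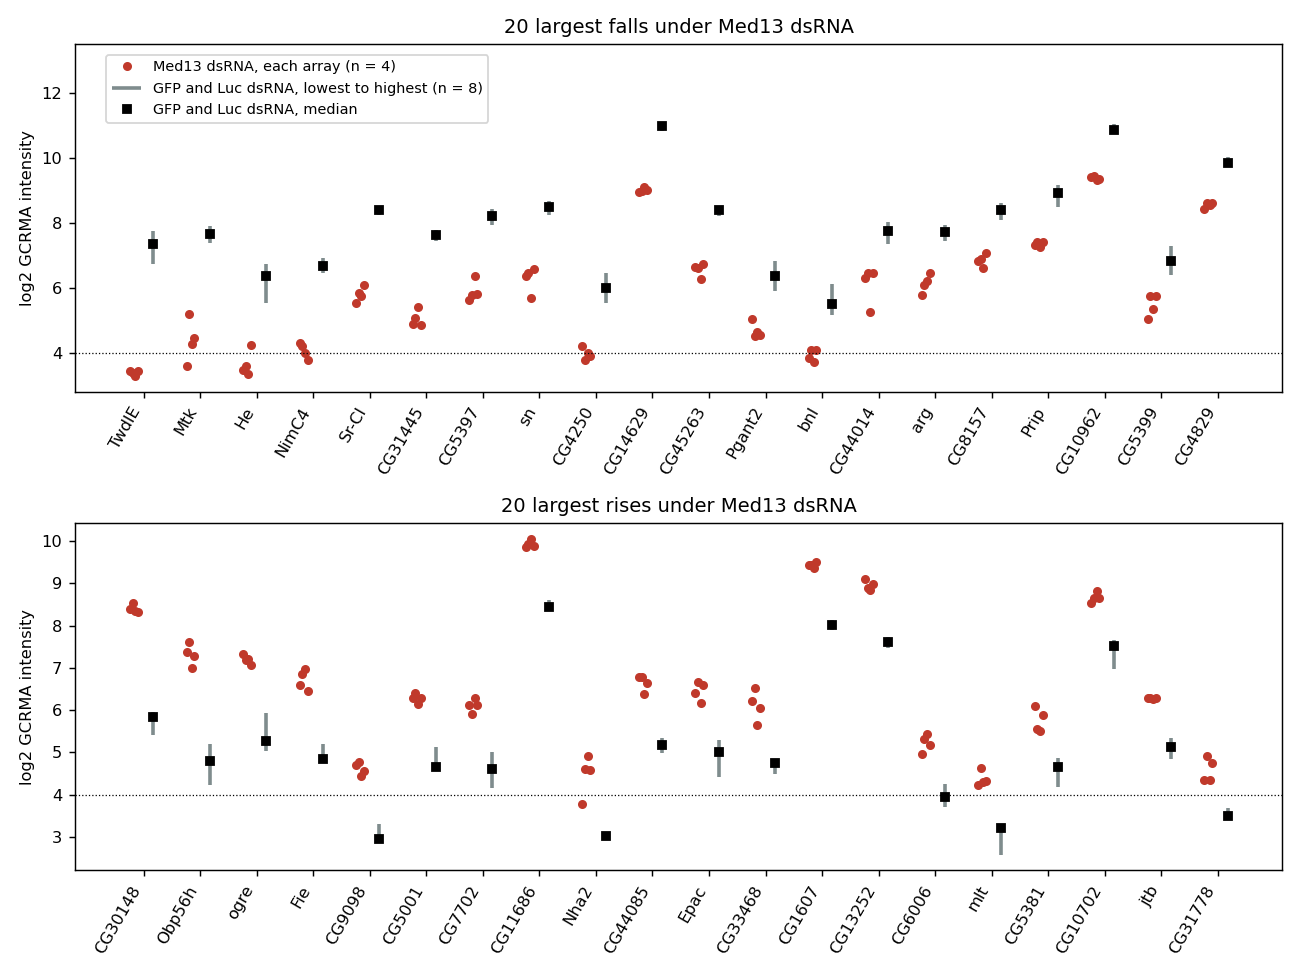
Log2 intensity of the 20 largest falls (top) and 20 largest rises (bottom), with a red point for each Med13 dsRNA array, a grey line from the lowest to the highest of the 8 GFP and Luc arrays, a black square at their median and a dotted line at the floor of 4. By the rule of choice each gene has its 4 Med13 points on one side of the whole control range. TwdlE lies under the floor on all 4 Med13 arrays (3.27 to 3.43).

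The largest rises were spread over transporters, signalling genes and uncharacterised genes. CG30148 read 8.40, 8.54, 8.35 and 8.33 under Med13 dsRNA, against 5.41 to 5.97 in controls (median 5.84; 2.62 ± 0.09, 6.17-fold; adjusted p = 1.1e-14). Obp56h, of the odorant-binding protein family of secreted carriers, read 7.38, 7.61, 7.01 and 7.28, against 4.23 to 5.20 in controls (median 4.80; 2.57 ± 0.16, 5.92-fold). Of 5 measured odorant-binding protein genes Obp99a also rose (0.50 ± 0.07), Obp99c fell (-0.38 ± 0.07), and Obp28a (0.10) and Obp44a (0.00) did not pass. The share called was 60%, beside 32.2% over all genes tested.

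The gap junction gene ogre, an innexin, read 7.34, 7.18, 7.22 and 7.07 under Med13 dsRNA, against 5.04 to 5.94 in controls (median 5.28; 1.86 ± 0.12). Innexins form the channels that join neighbouring insect cells. The other 3 measured innexin genes did not pass the test, with Inx2 at -0.10, Inx3 at -0.03 and zpg at 0.12. Epac, a cAMP-activated exchange factor for the small GTPase Rap1, read 6.42, 6.66, 6.16 and 6.60, against 4.43 to 5.29 in controls (median 5.02; 1.44 ± 0.10). Other cAMP genes moved less, since of 10 measured the phosphodiesterase gene dnc (-0.40 ± 0.09) and the adenylyl cyclase genes rut (-0.33 ± 0.07) and Ac76E (-0.24 ± 0.04) fell, and the G protein gene Galphas rose by 0.12. The share called was 50% of the cAMP list and 25% of the innexin list, beside 32.2% over all genes tested.

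Fie read 6.60, 6.85, 6.97 and 6.45 under Med13 dsRNA, against 4.80 to 5.19 in controls (median 4.84; 1.80 ± 0.09). Nha2, a sodium/proton antiporter gene, read 3.78, 4.61, 4.92 and 4.60, against 2.97 to 3.04 in controls (median 3.02; 1.46 ± 0.13). All 8 controls lay under the floor for Nha2, as they did for CG9098 (1.59 ± 0.07), mlt (1.26 ± 0.12) and CG31778 (1.08 ± 0.16), so for these 4 the ratio depends on the background correction. CG11686 read 9.87, 9.93, 10.06 and 9.88, against 8.37 to 8.60 in controls (median 8.45; 1.48 ± 0.04), and CG1607 read 9.44, 9.44, 9.36 and 9.51, against 7.90 to 8.14 (median 8.02; 1.40 ± 0.05). Both were strongly expressed and evenly raised. The rest of the 20 were CG5001 (1.55 ± 0.14), CG7702 (1.52 ± 0.12), CG44085 (1.46 ± 0.08), CG33468 (1.41 ± 0.11), CG13252 (1.35 ± 0.07), CG6006 (1.30 ± 0.12), CG5381 (1.24 ± 0.14), CG10702 (1.21 ± 0.09) and jtb (1.16 ± 0.10).

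Of 6 measured antimicrobial peptide genes 4 fell, beside 11.2% falls over all genes tested, and of 12 genes of the Imd pathway 7 rose, beside 21% rises. Antimicrobial peptides are secreted under the control of the Toll pathway and of the Imd pathway, which is triggered by peptidoglycan. Mtk, which encodes the antifungal peptide metchnikowin, read 3.60, 5.18, 4.27 and 4.44 under Med13 dsRNA, against 7.38 to 7.90 in controls (median 7.65; -3.25 ± 0.19). Its Med13 arrays were the most scattered of the large falls, from 3.60 to 5.18, with 1 under the floor, but none came near a control. AttD, an attacin gene, read 4.80, 4.79, 5.22 and 4.77, against 5.80 to 6.25 in controls (median 5.97; -1.12 ± 0.10). Drs, the drosomycin gene, read 8.20, 7.99, 7.92 and 7.99, against 8.50 to 9.04 (median 8.91; -0.83 ± 0.10). The fourth fall was that of CecB (-0.40 ± 0.05), and DptB rose (0.25 ± 0.08, adjusted p = 0.0225). The list median was -0.61.

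The 12 Imd pathway genes had a median of 0.16, with 7 rises and 1 fall. PGRP-LB, an enzyme that digests peptidoglycan, read 7.87, 7.80, 7.85 and 7.91 under Med13 dsRNA, against 7.14 to 7.61 in controls (median 7.31; 0.51 ± 0.05). The membrane proteins PGRP-LF, which restrains the pathway (0.40 ± 0.04), and PGRP-LA (0.41 ± 0.06) rose, as did the NF-κB factor gene Rel (0.28 ± 0.03). The kinase genes IKKbeta (0.22) and key (0.18) and the ubiquitin ligase gene Diap2 (0.15) rose less, and the adaptor gene Tab2 fell (-0.17). Of 11 Toll pathway genes 3 rose and 3 fell (54.5% called, beside 32.2% over all genes tested), with a median of -0.04. GNBP3, which recognises fungal glucan, rose (0.51 ± 0.06), together with the melanisation inhibitor gene Spn27A (0.22 ± 0.04) and cact (0.14 ± 0.03). Pli (-0.39 ± 0.06), which encodes Pellino, the NF-κB factor gene dl (-0.25) and the adaptor gene Myd88 (-0.16) fell.

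All 6 measured melanisation and crystal cell genes changed, 4 down and 2 up, beside 32.2% changed over all genes tested. The prophenoloxidase gene PPO1 read 5.76, 6.28, 5.69 and 5.92 under Med13 dsRNA, against 6.11 to 6.89 in controls (median 6.35; -0.49 ± 0.12), and here the groups overlapped. The serpin gene Spn28Dc (-0.63 ± 0.13), yellow-f (-0.31 ± 0.06) and PPO3 (-0.20 ± 0.06) also fell. The protease gene Sp7, which acts in the melanisation cascade, read 11.09, 11.27, 11.36 and 11.25, against 10.48 to 10.71 in controls (median 10.54; 0.68 ± 0.05), and Spn77Ba rose by 0.28 ± 0.07.

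**Figure D4:**
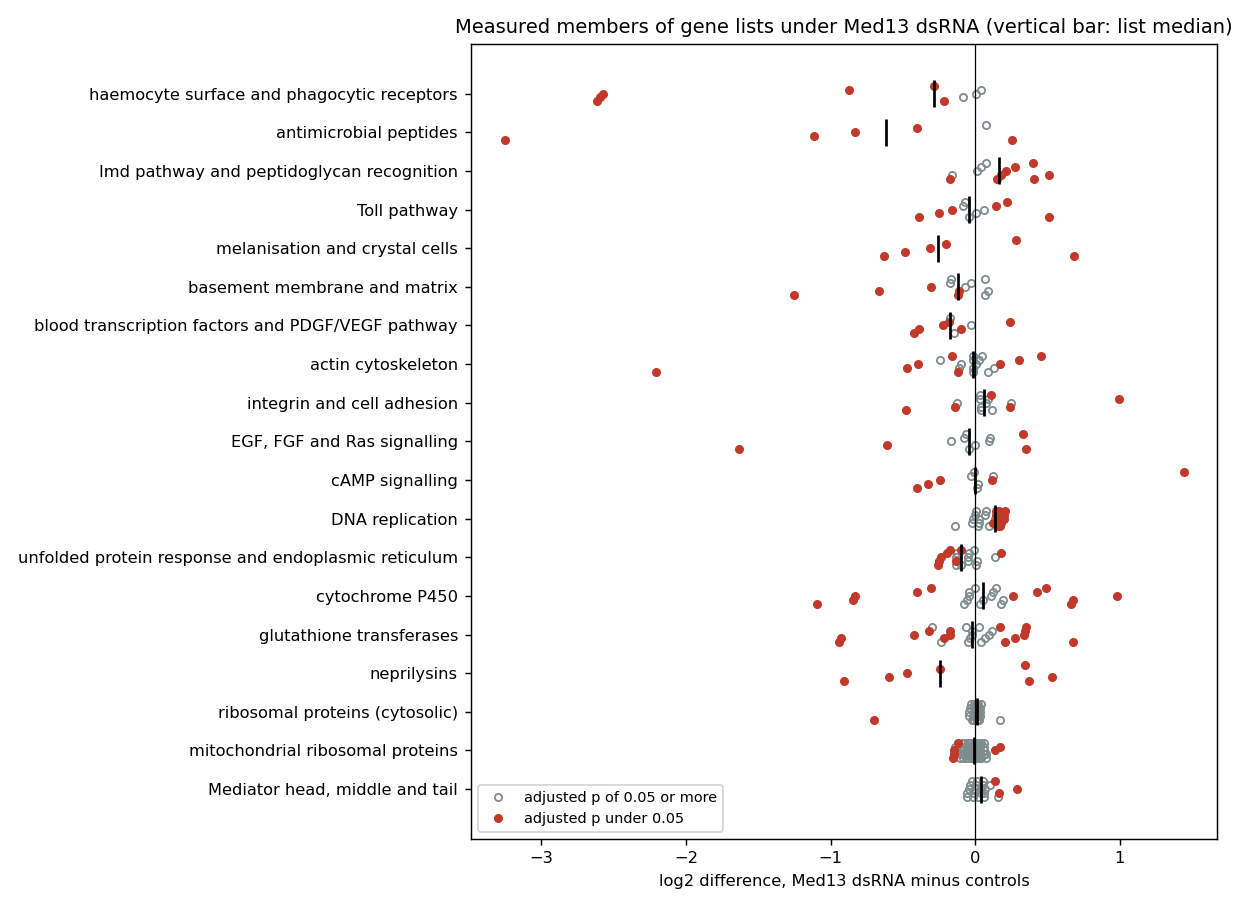
Log2 difference (Med13 dsRNA minus controls) of each measured member of 19 gene lists, filled where the adjusted p was under 0.05, with a vertical bar at the list median. Haemocyte receptors and antimicrobial peptides reach furthest left, with medians of -0.28 and -0.61, while DNA replication genes lie in a narrow band from -0.14 to 0.20, with a median of 0.13.

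Matrix genes of haemocytes fell in part. In the list of basement membrane and matrix genes 5 of 12 members fell and none rose, beside 11.2% falls over all genes tested. The list median was -0.12. Peroxidasin (Pxn), which crosslinks collagen IV, read 8.17, 8.21, 8.43 and 8.45 under Med13 dsRNA, against 9.26 to 9.92 in controls (median 9.64; -1.25 ± 0.07). Glutactin (Glt) read 11.54, 11.45, 11.66 and 11.54, against 12.07 to 12.39 in controls (median 12.22; -0.66 ± 0.04), and the integrin ligand gene Tig fell by 0.30 ± 0.05. Collagen IV (Col4a1) and laminin B1 (LanB1) fell by 0.12 and 0.11, whereas vkg (-0.07), trol (-0.17) and SPARC (0.07) did not pass the test.

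Transcription factors of blood cells and the PDGF/VEGF pathway were represented by 9 genes, of which 5 fell and 1 rose, with a median of -0.17. Over all genes tested 11.2% fell and 21% rose. The receptor gene Pvr (-0.10) and the genes for its ligands Pvf1 (-0.42 ± 0.04) and Pvf2 (-0.39 ± 0.06) fell. So did the GATA cofactor gene ush (-0.23 ± 0.05) and zfh1 (-0.18), and the GATA factor gene pnr rose (0.24 ± 0.04). Of 14 integrin and adhesion genes 3 rose and 2 fell (35.7% called), a share close to the 32.2% called over all genes tested. Fas1, a membrane adhesion protein, read 5.44, 6.00, 5.42 and 5.75 under Med13 dsRNA, against 4.44 to 4.92 in controls (median 4.66; 0.99 ± 0.10). The integrin alpha gene mew fell by 0.48 ± 0.12, with a second probe set at -0.25 that missed the threshold (adjusted p = 0.0505). The fall of the integrin beta gene mys (-0.14) had an adjusted p = 0.0404, a call lost in 8 of 31 alternatives, quantile normalization among them.

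Signalling pathways outside immunity had changed members in both directions, beside 32.2% changed over all genes tested. In the EGF, FGF and Ras list 2 of 11 rose and 2 fell. Besides bnl, the EGF receptor inhibitor gene aos fell (-0.61 ± 0.07), while the EGF ligand gene spi (0.33 ± 0.03) and the FGF ligand gene pyr (0.35 ± 0.07) rose. Of 6 Notch genes numb (0.57 ± 0.13) and dx (0.24 ± 0.04) rose and the protease gene kuz fell (-0.51 ± 0.06). Of 8 Wingless genes wls, needed for Wingless secretion, rose (0.24 ± 0.04) and the corepressor gene CtBP fell (-0.31 ± 0.06), although a second CtBP probe set stood at -0.02. The cytokine receptor gene dome rose (0.30 ± 0.06) as the one call among 4 JAK/STAT genes. Of 10 ecdysone response genes 3 rose and 2 fell, and this total of 5 lay between 3 and 7 with single arrays left out and was 3 under either rescaling. The coactivator gene tai was the largest of the rises (0.39 ± 0.08), and ImpL2 fell by 0.25 ± 0.06.

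Of 25 measured genes of DNA replication 13 rose by small amounts and none fell, beside 21% rises over all genes tested. The list median was 0.13, and the count was 11 with arrays centred on their medians, 12 after quantile normalization and 8 without the array Med13 4. Mcm2, a subunit of the replicative helicase, read 11.07, 11.15, 11.24 and 11.16 under Med13 dsRNA, against 10.86 to 11.07 in controls (median 10.95; 0.20 ± 0.04). The polymerase alpha gene PolA2 (0.20 ± 0.04), the ribonucleotide reductase gene RnrL (0.18 ± 0.03) and Mcm6 (0.15 ± 0.03) moved by a similar amount. All 13 rises lay between 0.12 and 0.20. Of 24 cell cycle and mitosis genes 7 were called (29.2%), all as rises, a share close to the 32.2% called over all genes tested. Among them were the securin gene pim (0.18 ± 0.04) and the kinesin gene ncd (0.17 ± 0.03), and the count was 4 with arrays centred on their medians or without the array Med13 3 and 3 without Med13 4.

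Of 19 genes of the endoplasmic reticulum and the unfolded protein response 7 fell by small amounts and 1 rose, beside 11.2% falls and 21% rises over all genes tested, and the list median was -0.10. Der-1, which helps to remove misfolded proteins, read 11.69, 11.70, 11.66 and 11.70 under Med13 dsRNA, against 11.87 to 12.01 in controls (median 11.94; -0.26 ± 0.03). Herp (-0.25 ± 0.05), Manf (-0.24 ± 0.03) and CaBP1 (-0.20 ± 0.03) fell likewise, and crc, which encodes the stress factor ATF4, rose by 0.18. The count of falls was 12 with arrays centred on their medians. Of 10 heat shock genes Hsp27 (-0.37 ± 0.05) and Hsp26 (-0.31 ± 0.12, adjusted p = 0.0495) fell and Hsc70-4 rose (0.08 ± 0.02), a call lost with arrays centred on their medians, where the list had 3 falls and no rise. Of 14 RNA interference genes 4 rose and none fell, including loqs (0.32 ± 0.05) and Dcr-2 (0.18 ± 0.04), which act in small RNA production, and 2 fell with arrays centred on their medians and 1 after quantile normalization.

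Detoxification families moved in both directions, beside 32.2% changed over all genes tested (21% rises and 11.2% falls). Of 23 cytochrome P450 genes 6 rose and 5 fell, from Cyp12e1 (0.98 ± 0.06) and Cyp6a17 (0.68 ± 0.05) to Cyp310a1 (-0.83 ± 0.05) and Cyp6a8 (-1.10 ± 0.15). Of 26 glutathione transferase genes 7 rose and 7 fell. GstE2 read 12.57, 12.54, 12.62 and 12.40 under Med13 dsRNA, against a median of 11.83 in controls (lowest 11.80, and every control below every Med13 array; 0.68 ± 0.04). GstD7 read 10.32, 10.58, 10.45 and 10.62, against 11.34 to 11.54 (median 11.43; -0.94 ± 0.06). Genes of one transferase family thus stood apart from controls on opposite sides. Of 8 UDP-glycosyltransferase genes 4 rose, led by Ugt302C1 (1.03 ± 0.06) and Ugt35A1 (0.81 ± 0.04), and Ugt37D1 fell (-1.32 ± 0.18), with all its Med13 arrays under the floor. All 7 measured neprilysin-like protease genes changed, 3 up and 4 down, from Nepl9 (0.53) to Nepl4 (-0.91 ± 0.06). Of 9 serpin genes, protease inhibitors that include those named above, 5 rose and 2 fell.

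Metabolic genes changed singly. The share called was 23.5% for carbohydrate metabolism and 35.7% for SREBP and fatty acid genes, beside 32.2% over all genes tested. Of 17 genes of carbohydrate metabolism the gluconeogenic enzyme gene fbp read 6.11, 6.19, 6.13 and 6.40 under Med13 dsRNA, against 4.78 to 5.58 in controls (median 5.39; 0.89 ± 0.11). The glycolytic gene Ald1 also rose (0.41 ± 0.09), but its second probe set stood at 0.03 and did not pass. Glycogen phosphorylase (Glyp, -0.52 ± 0.05) and the hexokinase gene Hex-A (-0.27 ± 0.06) fell. Of 14 SREBP and fatty acid genes 2 rose and 3 fell, with eas (-0.34 ± 0.05) and Acsl (-0.30 ± 0.06) the largest, and the 5 calls became 3 without the array Med13 3.

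Ribosomal protein genes moved little, with 3.23% of the cytosolic and 8.7% of the mitochondrial list called, beside 32.2% over all genes tested. Of 31 cytosolic ones 1 fell, RpS19b (-0.70 ± 0.07), which read 6.87 to 6.98 under Med13 dsRNA and 7.34 to 7.76 in controls. Of 69 mitochondrial ones 2 rose and 4 fell, and the falls became 9 with arrays centred on their medians and 11 after quantile normalization. The 6 calls became 3 without the array Med13 1. Of 15 Polycomb genes Psc rose by 0.23 ± 0.07, a call lost after quantile normalization and without the array Med13 3, and of 8 kinases and cyclins of transcription CycH rose by 0.11 ± 0.04, a call lost under both rescalings. Among 7 apoptosis genes (57.1% called) Dronc (0.20 ± 0.04) and egr (0.11) rose and Debcl (-0.24 ± 0.04) and Dark (-0.22 ± 0.05) fell. The egr call was lost in 4 of 31 alternatives, centring of arrays on their medians among them. A second Dark probe set stood at -0.11 and a second egr probe set at 0.09, and neither passed.

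Few genes separated Med13 dsRNA from Med12 dsRNA when the groups were tested against each other. The test called 52 genes (0.872% of those tested), 39 higher (0.654%) and 13 lower (0.218%) under Med13 dsRNA, with 660 at an unadjusted p under 0.05. The largest was the Med12 target itself, kto, at 8.63 to 8.75 under Med13 dsRNA and at a mean of 5.34 under Med12 dsRNA (difference 3.36 ± 0.07). The skd transcript was lower by 0.58 ± 0.06 (adjusted p = 1.03e-05). Against controls it stood at -0.31 under Med13 dsRNA and at 0.27 under Med12 dsRNA. Set against controls, Med12 dsRNA changed 2499 genes, which is 41.9% (26.5% higher and 15.5% lower). In 38 of the 52 genes the difference from controls was smaller in size under Med13 dsRNA than under Med12 dsRNA. These 2 comparisons share their control arrays. The 52 were picked for differing between the groups and include kto, the Med12 target. The same count was not made over all genes, so it is no result about the 52. The median size among changed genes was 0.21 under Med13 dsRNA and 0.22 under Med12 dsRNA. The number called was 25 without the array Med12 3, 34 without Med13 4 and 69 without Med13 1.

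Obp56h had a larger rise under Med13 dsRNA, at 2.57 ± 0.16 from controls beside 1.63 ± 0.16 under Med12 dsRNA, a difference of 0.93 ± 0.18 (adjusted p = 0.012). The same direction held for fbp, which stood at 0.89 and 0.23 (difference 0.67, adjusted p = 0.0085), CG15347, at 0.90 and 0.46 (0.44), and CtsL4, a cathepsin gene, at 0.38 and -0.11 (0.49). Higher under Med13 dsRNA because their falls were smaller were CG6472 (-0.58 and -1.20), CG46339 (-0.57 and -1.16) and CG30046 (-0.44 and -0.89).

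Among genes lower under Med13 dsRNA than under Med12 dsRNA, Gyg, the primer of glycogen synthesis, stood at 0.35 from controls beside 1.14 under Med12 dsRNA (difference -0.79, adjusted p = 0.0085). Ypel, a Yippee-like gene, stood at 0.08 and 0.76 (-0.68), Epac at 1.44 and 1.95 (-0.51), CG9098 at 1.59 and 2.05 (-0.47) and the translation regulator gene orb2 at 0.36 and 0.72 (-0.36). The netrin receptor gene fra stood at -0.18 and 0.28 (-0.46), and Sirup, a mitochondrial assembly factor gene, at -0.28 and 0.14 (-0.42). Of the 55 genes changed 2-fold under Med13 dsRNA 6 differed from Med12 dsRNA, namely Obp56h, CG9098, CG11686, Epac, CG14629 and CG9360. The share over all genes tested was 0.872%, and the 55 were chosen on the Med13 arrays, which enter this comparison too. For TwdlE, He, NimC4, Sr-CI and sn the direct differences were -0.32, 0.27, 0.18, -0.25 and 0.68, and none passed. The standard error of a direct difference was 0.21 for He and 0.18 for sn. The gap of 0.68 for sn missed the threshold (adjusted p = 0.083), so gaps of that order could go undetected with this number of arrays.

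**Figure D5:**
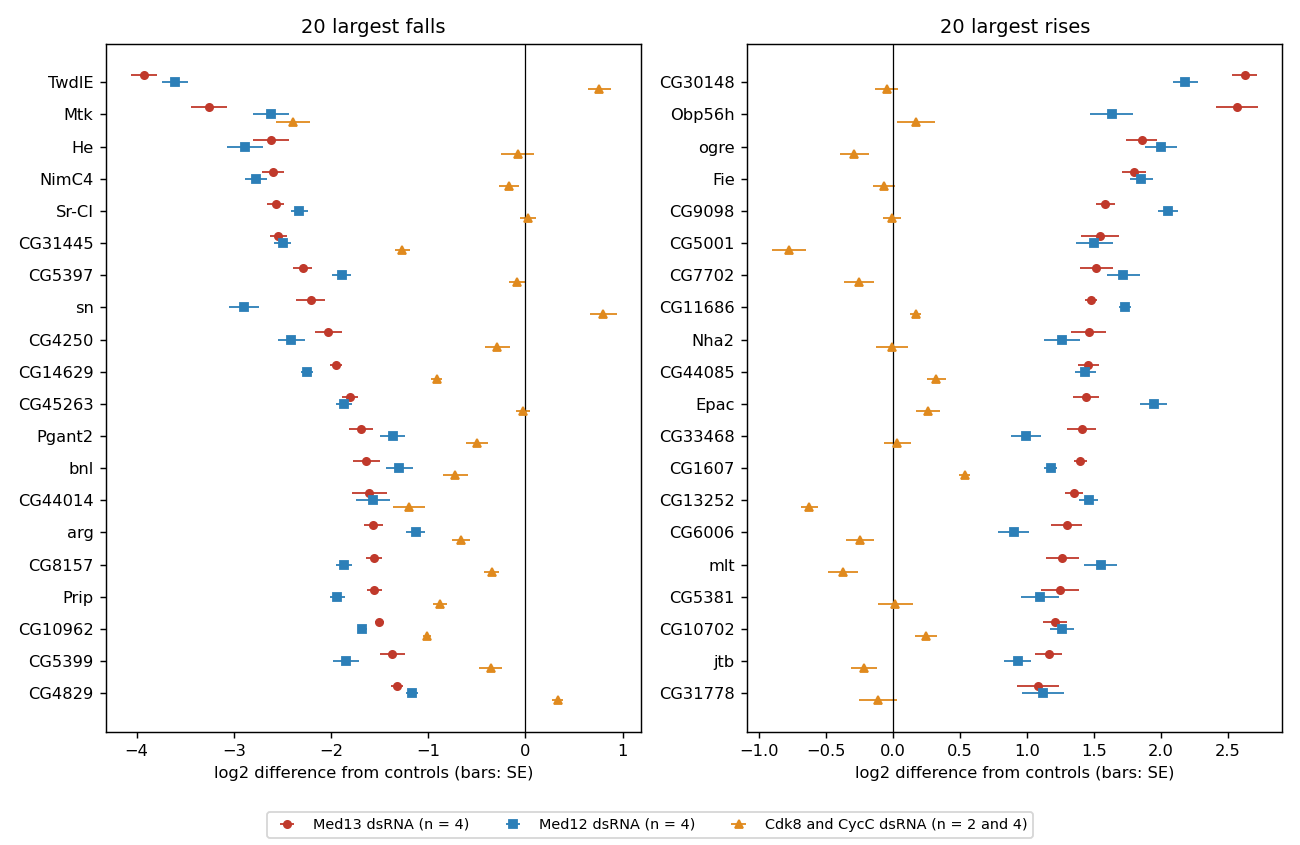
Log2 difference from controls, with standard errors, of the 20 largest falls and 20 largest rises under Med13 dsRNA, beside the same genes under Med12 dsRNA and under Cdk8 and CycC dsRNA. Med12 points lie on the same side of 0 as Med13 points throughout, while Cdk8 and CycC points lie between -2.39 (Mtk) and 0.80 (sn), on either side of 0. All 3 comparisons share their 8 control arrays.

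Many more genes separated Med13 dsRNA from dsRNA against the kinase and its cyclin. The mean of the Cdk8 and CycC groups (2 and 4 arrays) was the comparison here, and 2282 genes differed (38.3% of those tested), 1261 higher (21.2%) and 1021 lower (17.1%) under Med13 dsRNA, of which 102 by 2-fold or more. Under either rescaling the lower genes became the larger group. There were 1101 higher and 1287 lower genes after median centring of arrays, and 1186 and 1216 after quantile normalization. Set against controls, Cdk8 and CycC dsRNA changed 1814 genes, which is 30.4% (17.9% higher and 12.6% lower). Of the 55 genes changed 2-fold under Med13 dsRNA 51 differed, the exceptions being AttD, Ugt37D1, CG34417 and CG44014. Those 55 were chosen on the Med13 arrays, which enter this comparison too, so their share is favoured by the choice. For TwdlE the difference from controls was -3.93 under Med13 dsRNA and 0.76 under Cdk8 and CycC dsRNA, and the direct difference was -4.69 ± 0.14 (adjusted p = 1.9e-15). The fall of sn (-2.21) stood beside 0.80, that of Pxn (-1.25) beside 1.21 and that of RpS19b (-0.70) beside 0.59, each a call in its own direction.

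He (-2.62 and -0.08), NimC4 (-2.59 and -0.17) and Sr-CI (-2.57 and 0.03) fell under Med13 dsRNA and did not pass under Cdk8 and CycC dsRNA, and their direct differences of -2.54 ± 0.20, -2.42 ± 0.12 and -2.60 ± 0.09 passed. The arginine kinase gene Argk1 stood at -0.90 and 2.85 (direct difference -3.75 ± 0.18), with its Med13 arrays under the floor. The germline differentiation gene bam was higher under Cdk8 and CycC dsRNA, and since all its Med13 and control arrays lay under the floor the size of that difference depends on the background correction. On the other side CG33462 rose under Med13 dsRNA (0.52 ± 0.11) and fell under Cdk8 and CycC dsRNA, a direct difference of 3.52 ± 0.12.

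All 20 of the largest rises also differed between Med13 dsRNA and Cdk8 and CycC dsRNA, and so did 19 of the 20 largest falls. The share over all genes tested was 38.3%. Against controls, 5 of the 20 rises rose under Cdk8 and CycC dsRNA too, 4 fell and 11 did not pass. Of the 20 falls 11 fell there too, 3 rose and 6 did not pass, beside 17.9% higher and 12.6% lower over all genes tested. These genes were chosen for their size on the Med13 arrays, which enter the direct comparison too. That choice favours both the differences and smaller changes under Cdk8 and CycC dsRNA. The shared rises were smaller under Cdk8 and CycC dsRNA, with CG1607 at 1.40 under Med13 dsRNA and 0.54 there, CG44085 at 1.46 and 0.33, Epac at 1.44 and 0.26, CG10702 at 1.21 and 0.25 and CG11686 at 1.48 and 0.17. CG30148 stood at 2.62 under Med13 dsRNA and -0.05 under Cdk8 and CycC dsRNA, Obp56h at 2.57 and 0.17, ogre at 1.86 and -0.29, Fie at 1.80 and -0.06, CG5001 at 1.55 and -0.77 and CG13252 at 1.35 and -0.62, and all 6 direct differences passed. Opposite calls were also made for Sp7 (0.68 and -0.47), PGRP-LF (0.40 and -0.51), GNBP3 (0.51 and -0.55), Gel (0.45 and -0.53) and GstE2 (0.68 and -0.86). The replication genes Mcm2 and RnrL rose less under Med13 dsRNA, with Mcm2 at 0.20 and 0.41 (direct difference -0.21, adjusted p = 0.00019) and RnrL at 0.18 and 0.44 (-0.25, adjusted p = 1.8e-05).

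Antimicrobial peptide genes fell in both groups for 4 of the 6 measured members. Mtk stood at -3.25 under Med13 dsRNA and -2.39 under Cdk8 and CycC dsRNA (direct difference -0.86, adjusted p = 0.0022), AttD at -1.12 and -1.01 (-0.11, adjusted p = 0.47), Drs at -0.83 and -0.89 (0.06, adjusted p = 0.72) and CecB at -0.40 and -0.45 (0.05, adjusted p = 0.49). DptB had opposite calls, at 0.25 and -1.47, and edin stood at 0.07, which did not pass, and -1.05. The fall of eater was larger under Med13 dsRNA, at -0.87 beside -0.55 (direct difference -0.32, adjusted p = 5.3e-05). The fall of drpr was smaller, at -0.28 beside -0.57 (adjusted p = 6.7e-06).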

How the data were processed

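Messenger RNA of S2 cells was measured on 22 Affymetrix Drosophila arrays, each with biotinylated RNA made from 4 µg of total RNA. The deposited table holds 1 intensity per probe set and array on a linear scale (2.02 to 70939), and GCRMA, which corrects background by probe sequence, normalizes arrays and summarises probes, is the tool in the submitters' processing notes. The sources used here give neither its version nor its settings. The method compresses weak signals towards one low value, so ratios of weak transcripts come out too small, and normalization hides a change shared by all transcripts.

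Log2 was taken of each intensity. Of 18952 probe sets, 183 controls were dropped, and in the platform annotation 13647 of the others had 1 gene symbol, 402 had several and 4720 had none. By gene identifier 13544 matched a current RefSeq gene table, used for names only. Probe sets were kept where 2 arrays or more reached a log2 value of 4, which 7289 did (6403 with 1 symbol). The set with the highest mean stood for a gene with several, leaving 5961 genes. The number of arrays limits the precision, and the median gene had a moderated SD within groups of 0.0793 (log2).

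Groups and replicate numbers came from sample titles. All 22 arrays entered one linear model with a mean for each group (limma 3.58.1, R 4.3.3, lmFit, contrasts and eBayes, 16 residual degrees of freedom) which was tested on simulated data. Med13 was set against both controls (the average of their group means), against each control alone, against Med12, and against the average of the Cdk8 and CycC group means. Tests were two-sided with Benjamini-Hochberg adjustment over all 5961 genes at 0.05, and rose, fell or changed is written only of genes past it. SE is the moderated standard error of a log2 difference. For genes with several probe sets a second fit covered all 7289 sets.

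The members, the 43 gene lists, the naming rule and the alternatives were chosen with earlier results of these data known. The rule names the 20 largest rises and falls among called genes whose Med13 arrays all lay beyond every control, the 8 largest each way against Med12 and against Cdk8 and CycC, the 4 module genes, and the 4 members with the smallest p of each list. Other members and genes changed 2-fold are named where a count called for it, after their values were seen. Lists are described by counts and medians, with no test of a list.

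Same-numbered Med13 and GFP arrays deviated together (correlations of deviations from group means 0.103 to 0.276 for the 4 pairs), while those of Med13 and Luc did not in every pair (-0.084 to 0.239). Alternatives covered array centring, quantile normalization, the floor, an offset of 16, averaging of probe sets, the arrays fitted, eBayes with trend, a replicate block and leaving out each array.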

Additional observations from a re-analysis of the deposited data

Results flagged for a closer look

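Single arrays stood apart from the other 3 of their group for some of the named genes. The gap of the extreme array to its nearest neighbour was set against the range of the group of 4 with Dixon's 95% critical value, for 197 genes in the Med13, GFP and Luc groups. Of 591 such sets 43 were singled out, and chance alone gives about 5%. Luc 1 held 12 of them, GFP 3 held 6, and GFP 1 and Med13 3 held 5 each.

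On Med13 3 the reading was 5.25 for CG44014 (others 6.29 to 6.46), 8.91 for MED17 (8.67 to 8.69), 5.22 for AttD (4.77 to 4.80), 13.94 for Gel (13.78 to 13.81) and 11.85 for mys (12.15 to 12.16). On Med13 1 it was 9.61 for spir and 12.66 for Manf, and on Med13 2 it was 4.68 for Obp28a and 11.12 for Ugt35A1. On Med13 4 it was 9.81 for Sfmbt and 5.55 for RpS5b (others 4.86 to 4.90). None of these arrays reached across to the other side of the controls for CG44014 or AttD.

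On Luc 1 the low readings were 4.98 for Epac, 10.54 for Spn27A, 7.67 for Lsd-1, 12.29 for RnrL, 12.20 for ncd, 10.11 for Dcr-2, 12.59 for Caf1-55, 5.36 for aub and 7.32 for Ugt36E1. The high ones there were 6.60 for Pgant2, 11.22 for Ald1 and 10.45 for Cyp310a1. Luc 2 read low for fbp at 4.78, and Luc 4 read 4.48 for CG33468, 3.15 for mlt, 8.84 for Drs and 11.05 for mRpS5.

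On GFP 3 the reading was 3.13 for CG9098, 5.14 for CG5001, 2.97 for Nha2, 7.34 for CG44014, 7.28 for CG5399 and 4.31 for Obp28a. GFP 1 read 6.39 for CG6472, 10.51 for Spn27A, 8.19 for gro, 9.61 for Glyp and 8.52 for Hex-A. GFP 2 read 8.70 for kto and 10.75 for ush, and GFP 4 read 8.66 for sn and 4.73 for elav.

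Probe sets without a single gene symbol stayed out of the comparisons above. Of 886 over the floor 268 passed the threshold under Med13 dsRNA, beside 2271 of all 7289 probe sets in the same fit, a similar share. The lowest of the 268 relative to controls read 8.77, 9.05, 8.81 and 8.90 under Med13 dsRNA, against 10.99 to 11.38 in controls (log2 difference -2.33 ± 0.07 SE). The next differed by -2.02 ± 0.08, with Med13 arrays reaching 9.21 and controls from 10.89 to 11.27.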

How the results depend on the processing

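The 40 largest changes under Med13 dsRNA were called with the same sign under every one of the 31 alternatives that tested them, which was all 31 for 33 genes, while the floor of log2 6 left out the other 7 (CG9098, Nha2, mlt, CG31778, CG5381, CG6006 and bnl). No result reversed. The count of 1918 genes ranged from 1658 with no floor to 2026 with the replicate block, and from 1569 without Med13 2 to 1957 without CycC 2. The ratio of rises to falls depended on scaling, as given with the counts. With arrays centred on their medians, lower genes outnumbered higher ones against GFP alone, against Luc alone and against Cdk8 and CycC. With only the compared arrays in the fit, 921 genes were called against Luc alone (1486 with all arrays) and 33 against Med12 (52 with all arrays). Leaving out single arrays gave 1351 to 1698 against GFP alone, 1215 to 1499 against Luc alone, 25 to 69 against Med12 (25 without Med12 3, 34 without Med13 4 and 69 without Med13 1) and 1885 to 2369 against Cdk8 and CycC. The skd difference stayed between -0.35 and -0.26. With the replicate block the counts were 1710 against GFP alone, 1588 against Luc alone, 67 against Med12 and 2346 against Cdk8 and CycC, and the skd difference was -0.31. Same-numbered Med13 and Luc, Med12 or CycC arrays did not deviate together in every pair. The same-numbered array was the closest of its group for 4 of 4 Med13 arrays in GFP, 3 of 4 in Luc, 3 of 4 in CycC and 1 of 4 in Med12. The labels do not say what arrays of one number share, and this was not tested. Named genes near the threshold lost their call in several settings, above all Hsp26 and Gyg, and list counts moved by over 1.5 times in some. Without Med13 1 this held for the ecdysone and mitochondrial ribosomal lists, without Med13 2 for transcription kinases, without Med13 3 for cell cycle, SREBP, JAK/STAT, Polycomb, transcription kinases and neuronal markers, and without Med13 4 for DNA replication, cell cycle, ecdysone and markers of gut and germline. Single control or CycC arrays moved the ecdysone list (GFP 3, Luc 1), the integrin list (GFP 3, GFP 4, Luc 2), transcription kinases (GFP 4, Luc 1), innexins (CycC 2, Luc 4) and markers of gut (GFP 2, Luc 2) and germline (CycC 2, Luc 4). The causes were not tested. Weak signal limits the ratios of genes under the floor in one group.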
